A study of Mus musculus with 4 samples.

Results

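The genes of the large cartilage proteoglycan aggregate were compared between growth plate chondrocytes with and without the intraflagellar transport gene Ift88. They are the 10 genes Acan, Vcan, Hapln1, Has2, Has3, Cd44, Matn1, Matn2, Matn3 and Matn4, read through the 26 probe sets whose array annotation names exactly 1 of them, out of 45037 probe sets and 18193 genes tested. The tissue is the proliferative zone at the knee ends of tibia and femur, excised with a needle in 40 µm hindlimb sections at postnatal day 7. The series holds 2 arrays from Ift88-deleted mice (Col2aCre;Ift88fl/fl, in which the type II collagen promoter drives Cre in chondrocytes and their precursors) and 2 arrays from control mice labelled wild-type, all on the C57BL/6 background. The replicates are called biological. Whether a sample pools animals, and whether control mice carried Cre or the floxed allele, is not given in the sources used here.

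Aggrecan (Acan) is a core protein that carries chondroitin and keratan sulfate chains and holds water in cartilage. Many aggrecan molecules sit along a hyaluronan strand made at the cell surface by hyaluronan synthases, each locked in place by link protein (Hapln1), and CD44 can tether the strand to the cell. Versican (Vcan) is a related proteoglycan of looser tissue, and the matrilins are filament-forming adaptors that join collagen fibrils and aggrecan. Matn1 and Matn3 are largely restricted to cartilage, while Matn2 and Matn4 are also found in many other tissues.

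Each deposited value is a log2 value from which the probe set's own median over the 4 arrays had been taken away, so that values show differences between arrays and no expression level, and the middle pair of values of each probe set always mirror each other around 0. The stored numbers keep the step size of their original scale. By this step 14 of the 26 probe sets had a lowest original log2 value of 8 or more, 6 lay at 4 to 8 and 6 at 2 to 4. This placing is coarse, since 21.9% of all probe sets placed at 8 or more also fitted the next coarser step, that of a higher class. A fit to a step can thus place a probe set too high, and the placing compares no gene with another. The spread between both control arrays (SD of their difference over all probe sets 0.381) was larger than that between both Ift88-deleted arrays (0.279). Mean against mean, the 2 groups gave an SD of 0.289. Single arrays vary more than means of 2, so 0.289 cannot be ranked directly against 0.381 or 0.279. Control 1 and Ift88-deleted 2 lay at opposite ends of the leading component of variance (51.4%). Xist, a long RNA made in female cells, was -3.79 and -3.61 in the Ift88-deleted arrays, against 3.58 and 3.74 in the control arrays. The Y-linked gene Eif2s3y was at 1.80 and 1.55 in the Ift88-deleted arrays, against -1.55 and -1.78 in the control arrays, so that genotype and sex cannot be told apart in any comparison given here. The single probe set of Ift88 gave a log2 difference of 0.08 (SE 0.154). Where it lies in the gene was not analysed here, so whether it can report the deletion is not known, and it is not read as a test of it. The smallest two-sided p of an exact permutation of 2 arrays against 2 is 0.333. The tests are therefore those of limma, which borrows the spread of all probe sets or genes.

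The promoters of the 4 members that make up the cartilage aggregate with its matrilins are shown for orientation, as the 250 bases before an annotated start on the gene's own strand (RefSeq, GRCm38.p6). They lie at chr7:79052976-79053225 for Acan (plus strand), chr13:89540386-89540635 for Hapln1 (plus strand), chr4:130944135-130944384 for Matn1 (plus strand) and chr12:8947679-8947928 for Matn3 (plus strand). Capitals mark the GC box GGGCGG or its reverse complement CCGCCC, the letters that Sp1 family factors bind.
Acan: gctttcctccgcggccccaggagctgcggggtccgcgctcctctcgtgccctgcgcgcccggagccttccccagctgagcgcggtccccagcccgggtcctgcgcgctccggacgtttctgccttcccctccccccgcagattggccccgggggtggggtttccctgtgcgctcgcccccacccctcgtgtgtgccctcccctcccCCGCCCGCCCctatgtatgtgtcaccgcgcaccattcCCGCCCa
Hapln1: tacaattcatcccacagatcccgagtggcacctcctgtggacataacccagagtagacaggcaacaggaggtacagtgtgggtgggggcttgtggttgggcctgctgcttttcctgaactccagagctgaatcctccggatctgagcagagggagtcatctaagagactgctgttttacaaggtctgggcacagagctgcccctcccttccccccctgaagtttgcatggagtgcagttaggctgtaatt
Matn1: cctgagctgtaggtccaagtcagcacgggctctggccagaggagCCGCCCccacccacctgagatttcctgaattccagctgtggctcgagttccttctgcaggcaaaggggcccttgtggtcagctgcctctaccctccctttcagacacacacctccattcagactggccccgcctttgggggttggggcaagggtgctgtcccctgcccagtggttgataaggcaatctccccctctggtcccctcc
Matn3: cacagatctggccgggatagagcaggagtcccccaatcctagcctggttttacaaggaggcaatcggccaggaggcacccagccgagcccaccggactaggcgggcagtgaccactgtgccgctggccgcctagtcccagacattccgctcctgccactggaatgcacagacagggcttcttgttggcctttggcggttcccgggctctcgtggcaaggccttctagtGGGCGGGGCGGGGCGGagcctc
Acan had 3 such matches within 44 bases of its start and a G and C content of 74.4%, and Matn3 had 3 overlapping matches and 65.2%. Matn1 had 1 match and 62% G and C, and Hapln1 had 0 and 54.4%. The GC box was found in 32.7% of all 32851 promoter windows and in 5 of the 8 windows of members that the table holds (Acan, Cd44, Hapln1, Matn1, Matn3, Vcan and 2 starts of Matn4). On both strands, TATAAA (in 12.4% of all windows), the SOX core AACAAT (9.42%) and the GLI site GACCACCCA (0.225%) were not among the letters of these 8 windows. A match of letters is no evidence of binding, and their lack in this window says nothing of the factor.

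Matrilin-2 was the member with the largest difference, lower in both Ift88-deleted arrays, and the other 9 genes differed by 1.29-fold or less. In limma 0 of the 26 member probe sets passed an adjusted p of 0.05 (Benjamini-Hochberg over all probe sets), where 20 of all probe sets did (0.0444%, with 0.0222% higher and 0.0222% lower). As genes, each the mean over its probe sets, 0 of 10 passed, where 2 of all genes did (0.011%, with 0.0055% higher and 0.0055% lower). These 2 genes were Xist and Eif2s3y. At an unadjusted p under 0.05 there were 2 member probe sets, both of Matn2 and lower, against 6.17% of all probe sets (3.18% lower). Among genes it was Matn2 alone, against 5.96% (3.68% lower). Both Ift88-deleted arrays lay on 1 side of both control arrays in 11 of the 26 probe sets, 5 higher and 6 lower in the Ift88-deleted arrays, against 33.6% of all probe sets (16.2% higher and 17.4% lower). The median difference of the member probe sets was -0.005, against 0.002 over all probe sets, and the median size of difference was 0.141 against 0.129. The whole 95% interval lay within a 1.5-fold change for 13 of the 26, against 52.6% of all probe sets. In 19 of the 26 probe sets the difference between the groups was smaller than the gap between both arrays of at least 1 of the groups. The same share over all probe sets was not computed, and single arrays vary more than means of 2. This count therefore shows nothing particular to the members.

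**Figure D1:**
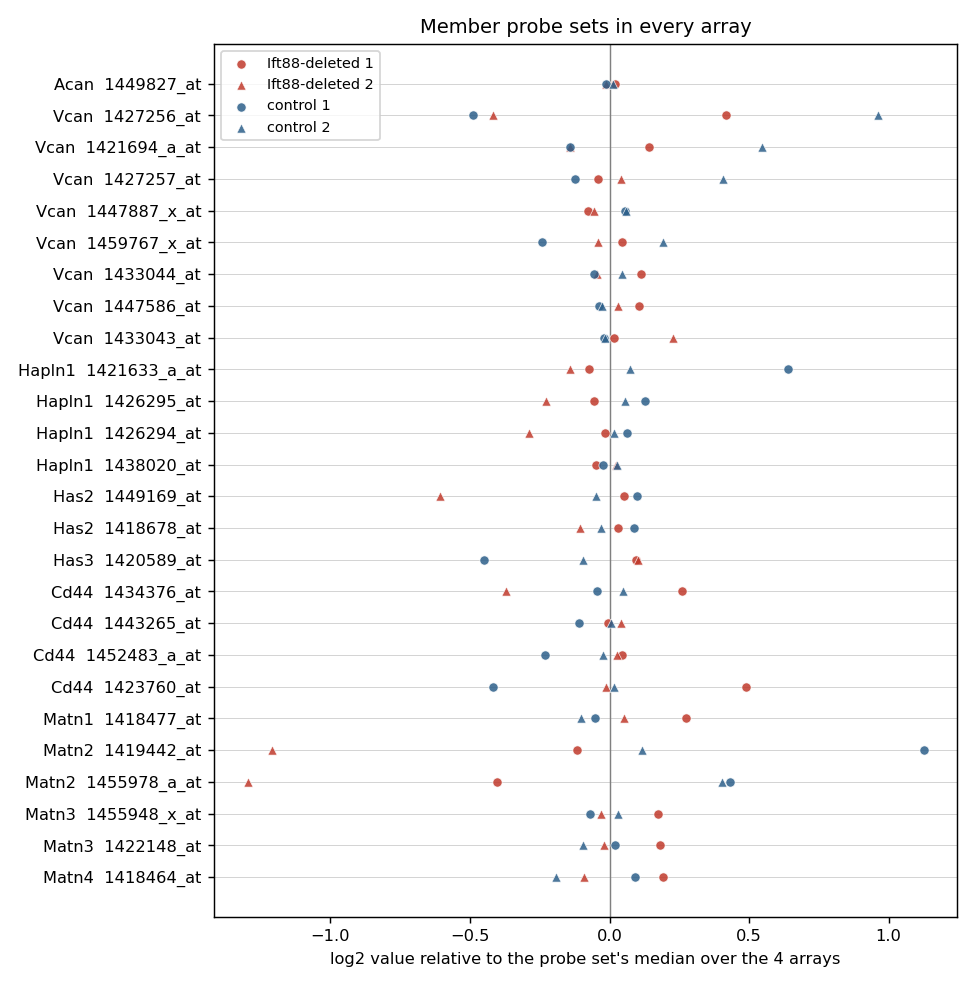
Log2 value relative to the probe set's median over the 4 arrays (horizontal) for each of the 26 member probe sets (rows), with 1 symbol per array. Both Matn2 probe sets have the Ift88-deleted arrays to the left of the control arrays, the Acan probe set has all 4 arrays within 0.031 of each other, and the first Vcan probe set spreads widely within each group.

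Acan, the aggrecan core protein (chromosome 7, 79053226 to 79115099, GRCm38.p6), showed no detectable difference. Its single probe set was at 0.02 and -0.01 in the Ift88-deleted arrays, against -0.01 and 0.01 in the control arrays. The groups overlapped and the whole range over the 4 arrays was 0.031. The log2 difference was 0.00 (SE 0.135, n = 2 per group, adjusted p = 1 in limma), and its 95% interval covers ratios from 0.793 to 1.27. By its step, the original value was placed in the brightest class in every array.

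Vcan, the versican core protein (chromosome 13, 89655309 to 89743027), had probe sets that did not move alike, and those with the widest spread varied more between arrays of 1 group than between groups. Its 8 probe sets gave differences from -0.24 to 0.14, with 4 above 0 and 4 below. The probe set with the widest spread, 1427256_at, was at 0.42 and -0.42 in the Ift88-deleted arrays, against -0.49 and 0.96 in the control arrays. Control 2 was the highest array in 5 of the 8, among them 1421694_a_at at 0.14 and -0.14 in the Ift88-deleted arrays, against -0.14 and 0.55 in the control arrays, and 1427257_at at -0.04 and 0.04 in the Ift88-deleted arrays, against -0.12 and 0.41 in the control arrays. The groups overlapped in these 3 probe sets. Of the other 5 probe sets, 4 were of the dimmest class, with differences from -0.13 to 0.14. The groups were apart in 3 of these 5, lower in the Ift88-deleted arrays in 1447887_x_at (-0.13) and higher in 1447586_at (0.10) and 1433043_at (0.14). As a gene, Vcan was at 0.09 and -0.05 in the Ift88-deleted arrays, against -0.13 and 0.27 in the control arrays (log2 difference -0.05, SE 0.174, 95% interval -0.48 to 0.38, adjusted p = 1). Leaving out control 1 gave -0.25 and leaving out control 2 gave 0.15, so the sign rests on single arrays.

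Control 2, the array highest in Vcan, also stood high in several marker lists, among them those of osteoclasts and neutrophils. The median of 5 osteoclast genes was -0.30 and 0.21 in the Ift88-deleted arrays, against -0.21 and 1.56 in the control arrays. That of 6 neutrophil genes was -0.27 and 0.27 in the Ift88-deleted arrays, against -0.38 and 0.76 in the control arrays. Control 2 was the highest array for the medians of resting and articular chondrocyte (0.97) and skeletal muscle (0.54) genes too. For the median of osteoblast genes it was not (0.29, against 0.36 in Ift88-deleted 1). Because levels are lost, no marker can be called absent, and the part of these cells in the Vcan values was not tested.

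Hapln1, link protein (chromosome 13, 89540529 to 89611832), was slightly lower in the Ift88-deleted arrays without passing the test. Its 4 probe sets, all of the brightest class, had differences below 0. In 3 of them the groups did not overlap, and in 1438020_at they did. The probe set with the largest difference, 1421633_a_at, was at -0.07 and -0.14 in the Ift88-deleted arrays, against 0.64 and 0.07 in the control arrays (log2 difference -0.47, SE 0.219, adjusted p = 0.845). Control 1 alone stood high there, and without it the difference was -0.18. The probe sets 1426295_at and 1426294_at differed by -0.23 and -0.19, and 1438020_at by -0.01. As a gene, Hapln1 was at -0.05 and -0.16 in the Ift88-deleted arrays, against 0.20 and 0.04 in the control arrays, a 1.17-fold lower mean (log2 difference -0.23, SE 0.134, 95% interval -0.56 to 0.10, adjusted p = 0.923). Leaving out control 1 gave -0.15 and leaving out control 2 gave -0.31.

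Link proteins and lecticans lie in the genome as neighbouring pairs. Vcan and Hapln1 are 43.5 kb apart with 0 protein-coding genes of the annotation between them, Acan and Hapln3 1.9 kb, Bcan and Hapln2 18.4 kb, and Ncan and Hapln4 2.2 kb. Set side by side, the log2 differences were -0.05 for Vcan and -0.23 for Hapln1, and 0.00 for Acan and 0.04 for Hapln3. The lecticans of the nervous system and their partners were at 0.01 for Bcan and -0.03 for Hapln2, and at 0.09 for Ncan and 0.01 for Hapln4. None of these 8 genes passed in limma (adjusted p of 0.923 for Hapln1 and 1 for the other 7), and Hapln1 was the gene among them whose groups did not overlap.

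The hyaluronan synthases had differences of opposite sign, and neither passed. Has2, the main synthase of developing limb and cartilage (chromosome 15, 56665627 to 56694546), has 2 probe sets. The brighter by class, 1449169_at, was at 0.05 and -0.61 in the Ift88-deleted arrays, against 0.10 and -0.05 in the control arrays. Ift88-deleted 2 alone was low, and the groups overlapped. The other, 1418678_at, was at 0.03 and -0.11 in the Ift88-deleted arrays, against 0.09 and -0.03 in the control arrays. As a gene, Has2 differed by -0.19 (SE 0.173, adjusted p = 0.982), and without Ift88-deleted replicate 2 by 0.01.

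Has3, a synthase that makes shorter hyaluronan chains (chromosome 8, 106870242 to 106882902), was at 0.10 and 0.10 in the Ift88-deleted arrays, against -0.45 and -0.10 in the control arrays. Both Ift88-deleted arrays lay above both control arrays, and control 1 was the lowest. The mean was 1.29-fold higher (log2 difference 0.37, SE 0.172, 95% interval -0.06 to 0.80, adjusted p = 0.843 among all probe sets), and without control replicate 1 the difference was 0.19.

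Cd44, the cell surface receptor for hyaluronan (chromosome 2, 102811141 to 102901669), had 4 probe sets that did not move alike. The probe set 1423760_at was at 0.49 and -0.01 in the Ift88-deleted arrays, against -0.42 and 0.01 in the control arrays (log2 difference 0.44, SE 0.241, adjusted p = 0.876). The brightest by class, 1434376_at, was at 0.26 and -0.37 in the Ift88-deleted arrays, against -0.05 and 0.05 in the control arrays (difference -0.06). Both Ift88-deleted arrays thus lay outside the control arrays on opposite sides. The 2 dimmest differed by 0.07 and 0.16. The groups were apart in 1452483_a_at alone, higher in the Ift88-deleted arrays. As a gene, Cd44 differed by 0.15 (SE 0.159, 95% interval -0.24 to 0.55, adjusted p = 0.984). Leaving out Ift88-deleted 1 gave 0.02 and leaving out Ift88-deleted 2 gave 0.29.

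Among the matrilins, Matn2 was lower in both Ift88-deleted arrays in each of its 2 probe sets, while Matn1, Matn3 and Matn4 had small differences above 0. Matn2 (chromosome 15, 34306681 to 34436242) was at -0.12 and -1.21 in the Ift88-deleted arrays, against 1.13 and 0.12 in the control arrays, by the probe set 1419442_at. By 1455978_a_at it was at -0.40 and -1.30 in the Ift88-deleted arrays, against 0.43 and 0.40 in the control arrays. The groups did not overlap in either, Ift88-deleted 2 was the lowest array in both, and the probe sets agreed on the size of the difference but not on the height of control 1.

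The mean of Matn2 was 2.43-fold lower by 1419442_at (log2 difference -1.28, SE 0.471, 95% interval -2.46 to -0.10, unadjusted p = 0.0378, adjusted p = 0.782 in limma) and 2.40-fold lower by 1455978_a_at (-1.27, SE 0.302, 95% interval -2.02 to -0.51, unadjusted p = 0.00713, adjusted p = 0.592). Of all probe sets 0.422% were at least 2-fold lower with groups apart. As a gene it was at -0.26 and -1.25 in the Ift88-deleted arrays, against 0.78 and 0.26 in the control arrays (2.42-fold lower, log2 difference -1.27, SE 0.35, 95% interval -2.14 to -0.41, adjusted p = 0.682 over all genes). A difference of this size or more was seen in 0.286% of all genes, and 0.385% were at least 2-fold lower with groups apart. Without Ift88-deleted replicate 1 the difference was -1.77 and passed (adjusted p = 0.0100, in a fit that called 0.308% of all genes, 0.209% lower, and assumes that the lone Ift88-deleted array varies like the control arrays). Leaving out Ift88-deleted 2 gave -0.78 (adjusted p = 0.951), leaving out control 1 gave -1.01 and leaving out control 2 gave -1.53. Over 13 other settings the adjusted p of the gene lay between 0.01 and 0.988, and its difference stayed below 0.

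Matn1, a cartilage matrilin that marks chondrocytes (chromosome 4, 130944385 to 130955476), was at 0.28 and 0.05 in the Ift88-deleted arrays, against -0.05 and -0.10 in the control arrays. The groups did not overlap, with a 1.18-fold higher mean (log2 difference 0.24, SE 0.151, 95% interval -0.14 to 0.62, adjusted p = 0.905 among all probe sets). Matn3, whose human counterpart is mutated in a form of multiple epiphyseal dysplasia (chromosome 12, 8947929 to 8972028), has 2 probe sets. They gave nearly the same values in the Ift88-deleted arrays, while their control arrays ran in opposite order. By 1422148_at it was at 0.18 and -0.02 in the Ift88-deleted arrays, against 0.02 and -0.10 in the control arrays, and by 1455948_x_at at 0.17 and -0.03 in the Ift88-deleted arrays, against -0.07 and 0.03 in the control arrays. The groups overlapped in both, and Ift88-deleted 1 was the highest array in both. As a gene Matn3 differed by 0.11 (SE 0.135, adjusted p = 0.996), and by 0.004 without Ift88-deleted replicate 1. The mean over both probe sets put the groups apart, by 0.00084 only. Matn4 (chromosome 2, 164389393 to 164405160) was at 0.19 and -0.09 in the Ift88-deleted arrays, against 0.09 and -0.19 in the control arrays, with groups that overlapped and a difference of 0.10 (SE 0.181, adjusted p = 0.997 among all probe sets).

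**Figure D2:**
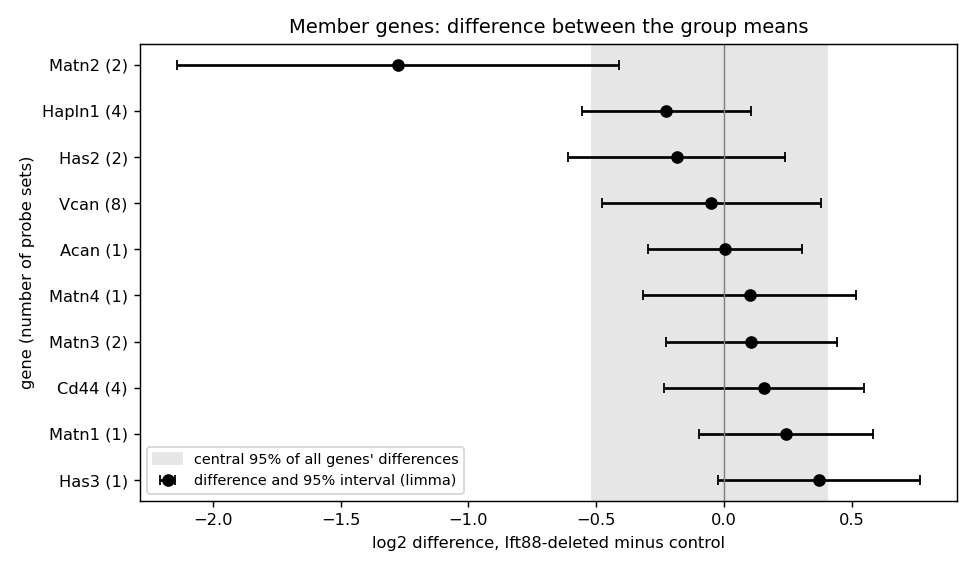
Log2 difference, Ift88-deleted minus control, with its 95% interval from limma (horizontal) for each of the 10 member genes (rows, with the number of probe sets), over a band that holds the central 95% of all genes' differences (-0.52 to 0.40). Matn2 at -1.27 lies outside the band, and the intervals of the other 9 genes include 0.

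Ordered by the difference, the genes ran Matn2, Hapln1, Has2, Vcan, Acan, Matn4, Matn3, Cd44, Matn1 and Has3, from -1.27 to 0.37. The 95% intervals of neighbours in this order overlapped at every step, that of Matn2 (-2.14 to -0.41) reaching into that of Hapln1 (-0.56 to 0.10). For 7 of the 10 genes the whole interval lay within a 1.5-fold change in either direction, as it did for 68.5% of all genes. For Acan as a gene it covered ratios from 0.814 to 1.23, and for Hapln1 from 0.680 to 1.07.

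Markers of other tissues are given for the same arrays, and 0 genes of the lists in this paragraph passed an adjusted p of 0.05 in limma. Over all genes the groups were apart and lower in 18.6%, and apart and higher in 14.7%. Of 10 skeletal muscle genes 10 lay below 0 and 5 had groups apart in that direction, and their median was -0.07 and -0.11 in the Ift88-deleted arrays, against 0.12 and 0.54 in the control arrays. The 6 measured resting and articular chondrocyte genes had a median of -0.33 and -0.42 in the Ift88-deleted arrays. It was 0.22 and 0.97 in the control arrays, with 4 genes apart and lower and 1 apart and higher. Among these 4, Prg4 was at -0.19 and -0.01 in the Ift88-deleted arrays, against 0.01 and 7.52 in the control arrays. Its groups were apart by 0.023 only, and control 2 set most of its difference. The 7 perichondrium and fibroblast genes had a median of 0.26 and 0.01 in the Ift88-deleted arrays, against -0.21 and 0.18 in the control arrays, with 2 (Dcn and Thy1) apart and higher. The 6 measured osteoblast genes had a median of 0.36 and -0.58 in the Ift88-deleted arrays, against -0.22 and 0.29 in the control arrays, with 2 (Dmp1 and Sp7) apart and lower. Ift88-deleted 2, the lowest array in Matn2, was the lowest in all 6 of these osteoblast genes, against 23.9% of all probe sets. Control 1, the highest array in Matn2, was above control 2 in only 1 of the 6 osteoblast genes. In other lists Ift88-deleted 2 was the lowest in 6 of 10 skeletal muscle and 4 of 7 prehypertrophic and hypertrophic chondrocyte genes. It was so in 4 of 10 proliferative chondrocyte, 0 of 5 osteoclast and 0 of 6 neutrophil genes. Matn2 is expressed by connective tissue and muscle as well as by cartilage. Control 1, the higher control array in Matn2, was also the higher one in 5 of the 10 muscle genes. Among them were 4 of the 5 with groups apart (Tnni2, Mylpf, Tnnc2 and Myh3). Control 2 was the higher one in the other 5, among them Myh1, also with groups apart. Myh1 was at 0.05 in control 1 and 1.02 in control 2. Tnni2, a fast muscle troponin, was at -0.86 and -1.14 in the Ift88-deleted arrays, against 1.05 and 0.88 in the control arrays. The part of these cells in the Matn2 values was not tested. Fewer cells of a type and less RNA per cell cannot be told apart in such bulk tissue. The 10 proliferative chondrocyte genes, 4 of which are members (Acan, Hapln1, Matn1 and Matn3), had medians of 0.14 and -0.02 in the Ift88-deleted arrays, against -0.01 and 0.00 in the control arrays.

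**Figure D3:**
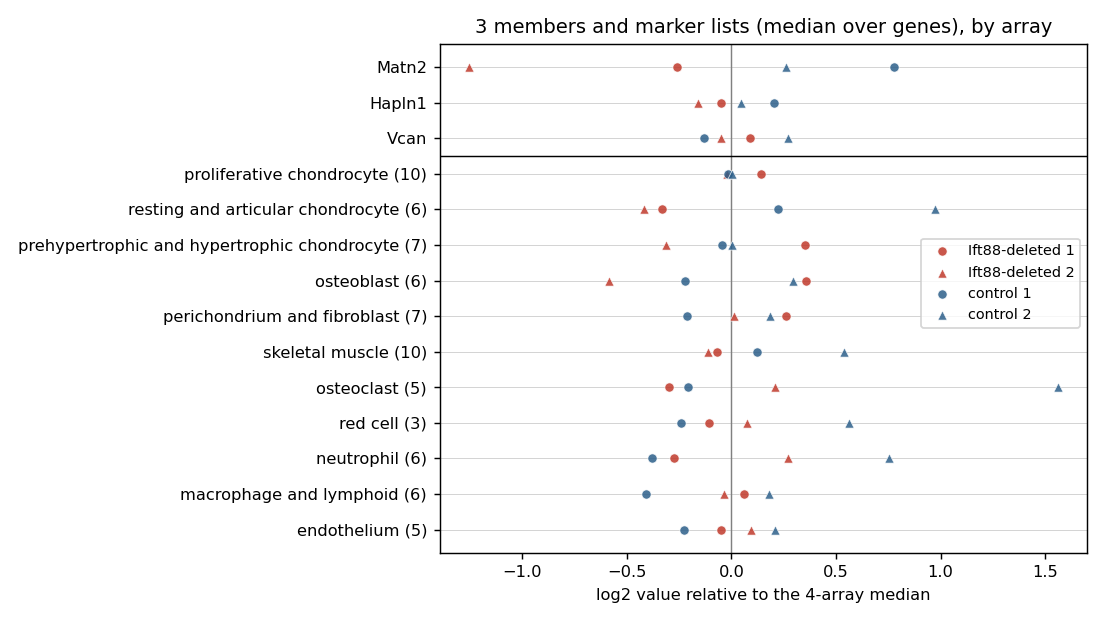
Log2 value relative to the median over the 4 arrays (horizontal), with 1 symbol per array, for Matn2, Hapln1 and Vcan (above the line) and for the median over the measured genes of each marker list (below the line, number of genes in brackets). Control 2 stands apart to the right for osteoclast genes at 1.56, and for Matn2 control 1 is the highest array at 0.78.

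The 3 genes nearest to Matn2 in their 4 array values, by root mean square distance over all named genes, were Tmem119 (0.117), Uaca (0.148) and Taldo1 (0.165). Tmem119, a membrane protein of bone-forming cells and microglia, was at -0.14 and -1.14 in the Ift88-deleted arrays, against 0.66 and 0.14 in the control arrays. Taldo1, an enzyme of the pentose phosphate pathway, was at -0.26 and -0.99 in the Ift88-deleted arrays, against 0.58 and 0.26 in the control arrays. The difference between the groups was -1.04 for Tmem119, -1.06 for Uaca and -1.05 for Taldo1, with adjusted p of 0.634 to 0.814 in limma. With 4 arrays such likeness is a description of these values only. They share the low value of Ift88-deleted 2 and the high value of control 1.

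Other genes that make, bind or cut the aggregate showed no call. Of 49 measured genes 0 passed over all genes, 6 had an unadjusted p under 0.05 (5.96% of all genes did), and the groups did not overlap in 13, with 6 higher and 7 lower (33.3% of all genes, 14.7% higher and 18.6% lower). Their median difference was 0.01, against -0.01 over all genes. Below 0 with groups apart, the largest differences were those of Adamts1, a protease that cuts lecticans (-0.57, SE 0.283), Timp3, which inhibits the aggrecanases (-0.54, SE 0.198), Comp, a pentameric matrix protein that binds matrilins and collagens (-0.54, SE 0.179), and Fbln2, a fibulin that binds the lectin domain of lecticans (-0.33, SE 0.126). Above 0 they were those of Dcn, the small proteoglycan decorin (0.95, SE 0.34), Tnfaip6, a hyaluronan-binding protein that moves heavy chains onto hyaluronan (0.58, SE 0.128, unadjusted p = 0.00444, adjusted p = 0.503), Cemip2, a hyaluronan-binding membrane protein (0.48, SE 0.155), and Mmp3, stromelysin-1 (0.22, SE 0.122). The adjusted p values of the other 7 ran from 0.792 to 0.909.

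Tnfaip6 was at 0.25 and 0.38 in the Ift88-deleted arrays, against -0.25 and -0.28 in the control arrays. Both groups were tight, and its difference kept within 0.51 and 0.65 as single arrays were left out. Dcn was at 0.26 and 0.22 in the Ift88-deleted arrays, against -1.25 and -0.17 in the control arrays, so that control 1 set most of the difference, which was 0.41 without that array. Adamts1 was at -0.07 and -0.94 in the Ift88-deleted arrays, against 0.07 and 0.08 in the control arrays, and its difference was -0.14 without Ift88-deleted replicate 2. Without that array Timp3 was at -0.28, Comp at -0.32 and Cemip2 at 0.32.

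Of these genes, 2 averaged probe sets that differed in sign. Of the 4 probe sets of Timp3, 3 gave differences of -0.93, -0.69 and -0.64 and the last, 1419088_at, 0.08. Of the 3 of Cemip2, 2 gave 1.05 and 0.47 and 1445918_at gave -0.07. Fbln2 averaged 1423407_a_at at -0.45, with groups apart, and 1438375_at at -0.22, with groups that overlapped. The aggrecanases Adamts4 and Adamts5, the main enzymes that cut aggrecan, were at 0.15 (SE 0.155) and -0.10 (SE 0.143), with groups that overlapped. The Sox factors that drive Acan, Hapln1 and Matn1 were at 0.04 (Sox9, SE 0.19), -0.01 (Sox5, SE 0.141) and -0.13 (Sox6, SE 0.156), and their groups overlapped as well. Col2a1, the collagen whose fibrils hold the aggregate, was at 0.25 (SE 0.176), and Ugdh, the enzyme that makes a sugar precursor of hyaluronan, at -0.12 (SE 0.139).

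**Figure D4:**
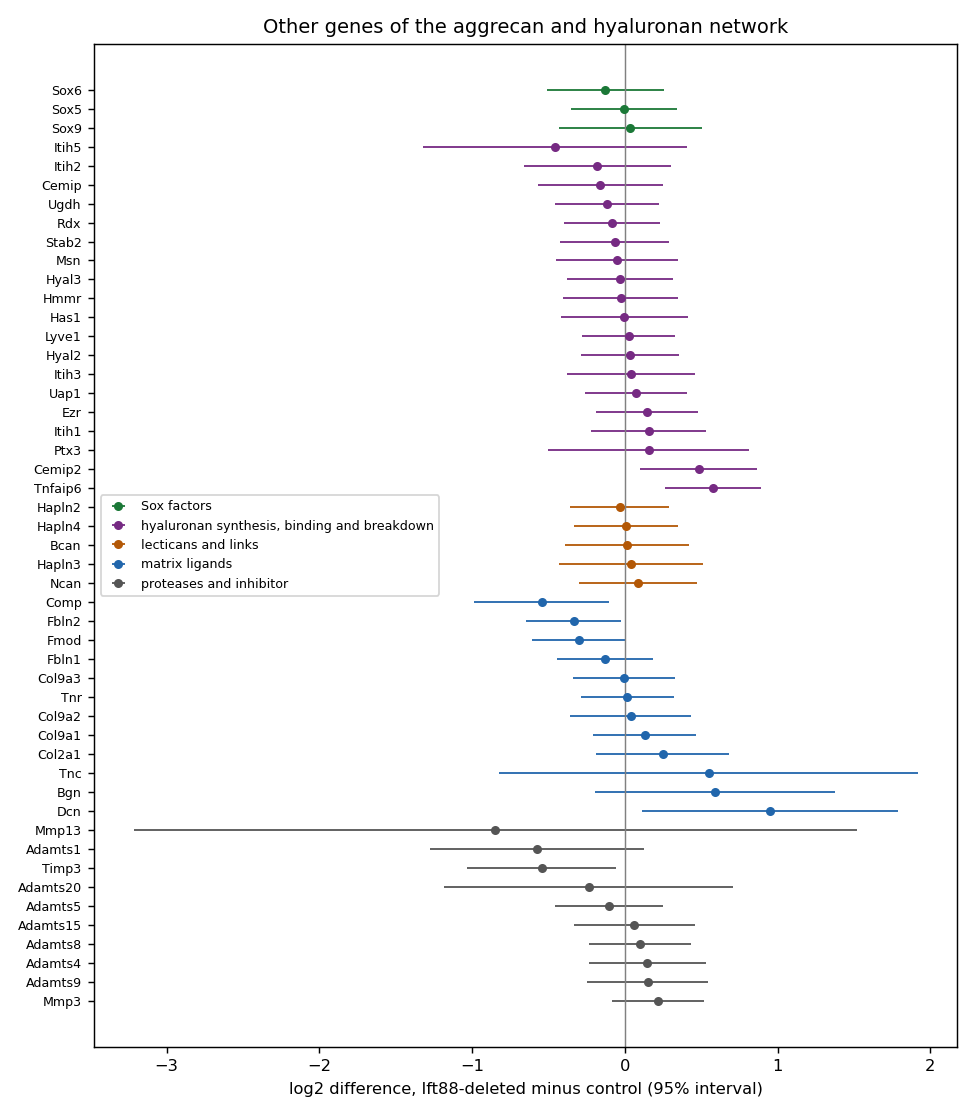
Log2 difference, Ift88-deleted minus control, with its 95% interval from limma (horizontal) for the 49 other genes of the aggrecan and hyaluronan network (rows), coloured by role. Differences run from -0.85 (Mmp13, with the widest interval) to 0.95 (Dcn), and none passed over all genes.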

How the data were processed

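RNA (50 ng per sample) went through 2 rounds of oligo-dT primed amplification and was hybridised to Affymetrix mouse arrays, per the labels' protocols, which favours the 3' ends of transcripts. The values are log2 values deposited by the authors. RMA, without a version, is named in the notes, per the submitters' processing notes. In the deposited table the median of every probe set over the 4 arrays was 0, within 5e-07, and the log2 base was inferred from the stored steps. The number of arrays limits the precision. The 64 control probe sets were left out. Of the other 45037, 34945 name 1 gene. The fit was limma 3.58.1 in R 4.3.3 (group only, eBayes without trend), with Benjamini-Hochberg adjustment over all probe sets or all genes, on 2 residual and 3.46 prior degrees of freedom for probe sets. It was tested on simulated data.

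The members and lists were chosen with earlier results of these data known. Named are all members, Ift88, sex-linked genes, 4 genes per direction of the 49 list genes with the largest differences among those with groups apart, and the 3 genes nearest to the member with the widest range. Adamts4, Adamts5, the Sox factors, Col2a1, Ugdh, Mmp13, the lectican pairs and single marker genes were chosen after their values were seen. Hyal1, Fbn1, Pthlh and a few other listed genes were not analysed here. Probe sets ending in _x_at can also match other transcripts. Alternatives were other normalizations, spread settings, thresholds, filters, gene summaries, the replicate number as a block and leaving out each array.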

Additional observations from a re-analysis of the deposited data

How the results depend on the processing

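The count of member probe sets called was 0 and that of network genes called was 0 under each alternative run (renewed quantile normalization, array medians subtracted, no moderation, robust moderation, X and Y genes left out, the dimmest class left out, the replicate block, a threshold of 0.1 and each array left out), and for probe sets also with probe sets that name 1 gene only. The alternative that keeps probe sets naming a member among several genes added 0 probe sets and gave no new value. Over all probe sets 20 were called, with 2 without moderation, 6 among probe sets that name 1 gene only, 5 with X and Y genes left out, 5 with the replicate block and 9 to 12 as single arrays were left out. Over all genes 2 were called, with 14 after renewed quantile normalization, 1 without moderation, 0 with X and Y genes left out, 4 with the dimmest class left out, 1 with the replicate block, 9 with the probe set of the largest range per gene, 11 at a threshold of 0.1 and 2 to 56 as single arrays were left out. The labels do not say that replicate numbers pair samples. Deviations of same-numbered arrays from their group means correlated at 0.10 over probe sets, and in the fit with the replicate block 0 members were called. Renewed quantile normalization turned the sign of Vcan 1459767_x_at (-0.017) and Cd44 1434376_at (0.0042), and the cause was not tested.

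As single arrays were left out, the log2 difference changed sign in 11 of the 26 probe sets, all of small difference or wide spread: Acan from -0.011 to 0.018, Vcan 1427256_at from -0.96 to 0.49, 1421694_a_at from -0.55 to 0.14, 1427257_at from -0.41 to 0.12, 1459767_x_at from -0.19 to 0.24 and 1433044_at from -0.039 to 0.12. The others were Hapln1 1438020_at (-0.050 to 0.023), Has2 1449169_at (-0.63 to 0.027), Cd44 1434376_at (-0.37 to 0.26), Matn3 1455948_x_at (-0.010 to 0.20) and Matn4 (-0.043 to 0.24). As genes Vcan ran from -0.25 to 0.15, Has2 from -0.38 to 0.013 and Ift88 from -0.064 to 0.22. Matn2 kept its sign, from -1.83 to -0.74 by 1419442_at and from -1.71 to -0.82 by 1455978_a_at. As a gene it passed without Ift88-deleted replicate 1, where neither probe set passed, and under no other alternative run.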
